A study of Mus musculus with 12 samples.

Results

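Small leucine-rich proteoglycans are secreted proteins of the extracellular matrix, and 9 of their genes were followed in mouse adipose tissue: Podn, Fmod, Dcn, Lum, Bgn, Ogn, Prelp, Omd and Aspn. They were taken by name from 18193 genes measured, with 20 probe sets among 45098. Each gene was read by its main probe set, the one of highest mean signal across the 12 arrays. Podn and Fmod were picked because their signal was lower on the diet in these same arrays, so their diet differences are given as a description with no test. The other 7 are relatives of the same family, listed with earlier results of these data known.

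The tissue came from C57Bl/6 mice, group housed and fed standard chow, with 13% of calories from fat, up to 6 weeks of age. The 4 chow samples stayed on that diet, 4 samples were taken after 5 days of high-fat diet (HFD) supplying 46% of calories as fat and 4 after 14 days. The series title places the work in the study of insulin resistance. The labels name no depot, no sex and no age at collection for the chow mice, and nothing in them says that each sample came from a separate animal, so every p below measures the spread between these samples. Biotin-labelled RNA, copied from the poly(A) end of total RNA, was read on Affymetrix arrays that each held 1 sample, and all values are log2 signals of a probe set as deposited.

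In small leucine-rich proteoglycans a short protein core of leucine-rich repeats binds collagen fibrils and, in many members, carries chondroitin, dermatan or keratan sulphate chains. The family governs how wide and how regular collagen fibrils grow, and several members bind transforming growth factor beta or signal through cell surface receptors. In fat the proteins are made mainly by fibroblasts and adipocyte progenitors of the stroma, which lay down the matrix around growing adipocytes. By sequence, Dcn, Bgn and Aspn form class I, Fmod, Lum, Prelp and Omd class II, Ogn belongs to class III and Podn to a separate, non-canonical class. In a whole tissue, fewer cells of a type and less RNA per cell cannot be told apart.

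Most of the genes lie in family clusters. Prelp and Fmod are neighbours on chromosome 1 of GRCm38.p6 (133910304 to 133930102 and 134037254 to 134048280), with 107151 bases and 0 other protein-coding genes between them. Dcn (97479500 to 97518163) and Lum (97565501 to 97572703) follow each other on chromosome 10. Aspn, Omd and Ogn sit in a row on chromosome 13, at 49544443 to 49567565, 49582462 to 49592612 and 49608015 to 49624501. Podn lies alone on chromosome 4 (108014793 to 108031954) and Bgn on chromosome X (73483601 to 73495936).

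The promoters of Podn and Fmod are shown because these genes had the pattern of lower signal on both lengths of HFD. Both stretches are the 250 bases before the annotated gene start, 5′ to 3′ on the gene's strand, from RefSeq on GRCm38.p6, at chr4:108031955-108032204 on the minus strand and chr1:134037004-134037253 on the plus strand. Capitals mark a match to any of the motifs searched on both strands.
Podn: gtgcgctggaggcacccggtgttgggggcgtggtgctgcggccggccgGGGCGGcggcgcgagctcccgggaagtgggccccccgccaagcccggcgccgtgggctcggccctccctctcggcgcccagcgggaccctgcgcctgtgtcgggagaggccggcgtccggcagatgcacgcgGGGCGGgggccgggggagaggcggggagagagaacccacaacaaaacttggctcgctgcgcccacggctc
Fmod: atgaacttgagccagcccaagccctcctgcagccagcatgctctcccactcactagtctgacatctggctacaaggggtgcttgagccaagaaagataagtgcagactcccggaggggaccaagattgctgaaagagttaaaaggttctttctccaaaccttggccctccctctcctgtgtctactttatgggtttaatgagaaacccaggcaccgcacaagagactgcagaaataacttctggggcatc
The motifs were TATAAA for the core promoter element of that name, GGGCGG for the GC box, CAGACA for the SMAD box, TGANTCA for the AP-1 site, CCAAT for the element of that name and CACCTG for an E-box. The Podn stretch was 78% G and C, against a median of 52.4% over 32851 mouse promoters, and held 2 GC boxes, at -202 to -197 and -70 to -65 from the start. The Fmod stretch was 51.2% G and C and held 0 of the 6 motifs. A GC box was found in 32.7% of all promoters of this length, a SMAD box in 17.1%, the letters CCAAT in 33.8%, TATAAA in 12.4%, an AP-1 site in 6.75% and this E-box in 17.2%. Of the 6 genes with an entry at the annotated gene start (Podn, Fmod, Bgn, Aspn, Omd and Ogn), GC boxes occurred in Podn and Bgn, TATAAA in Aspn and Ogn, and CCAAT in Aspn. The TATAAA matches lay far from the start, at -207 to -202 and -178 to -173 in Aspn. In Ogn they lay at -229 to -224 and -227 to -222. These are matches of letters and were not examined as binding sites.

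Some arrays stood apart from the others of their group. Mean signal of 8 epididymis markers was 9.26 to 10.05 in 5-day arrays 1 to 3 and 10.67 in 14-day array 4, and 6.97 to 7.68 in the other 8 arrays. At 5 days Spink8, Adam7, Spint4 and Lcn5 were above chow by 1.84 to 4.98. Gpx5, Lcn8, Lcn9 and Rnase10 differed by only -0.02 to 0.08. In 14-day array 4 the smooth muscle marker mean was 13.44, against 9.36 to 10.69 in 14-day arrays 1 to 3. The skeletal muscle marker mean was 12.08 for chow array 3, 11.81 for 5-day array 2 and 7.97 to 8.96 for the rest. The mean of 9 liver markers varied widely within each group. It ran from 8.66 to 12.38 in chow, with array 3 the highest. After 5 days it ran from 9.78 to 13.52, with array 4 the highest, and after 14 days from 9.53 to 13.08, with array 1 the highest. Pyruvate carboxylase, whose 3′ signal exceeds its 5′ signal more in degraded RNA, had a gap of 2.83 in 5-day array 4 and 1.59 to 2.18 in the others. For Gapdh the same gap was 0.276 in 14-day array 2, 0.272 in 5-day array 4 and 0.064 to 0.134 in the others. Adipocyte markers, 9 of them, averaged 13.54 to 14.07 in all arrays, with the lowest mean in 14-day array 4. All 13 fibroblast and preadipocyte markers on the array passed the intensity filter of 7.64, while 7 of 8 tendon and cartilage markers lay under it.

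**Figure D1:**
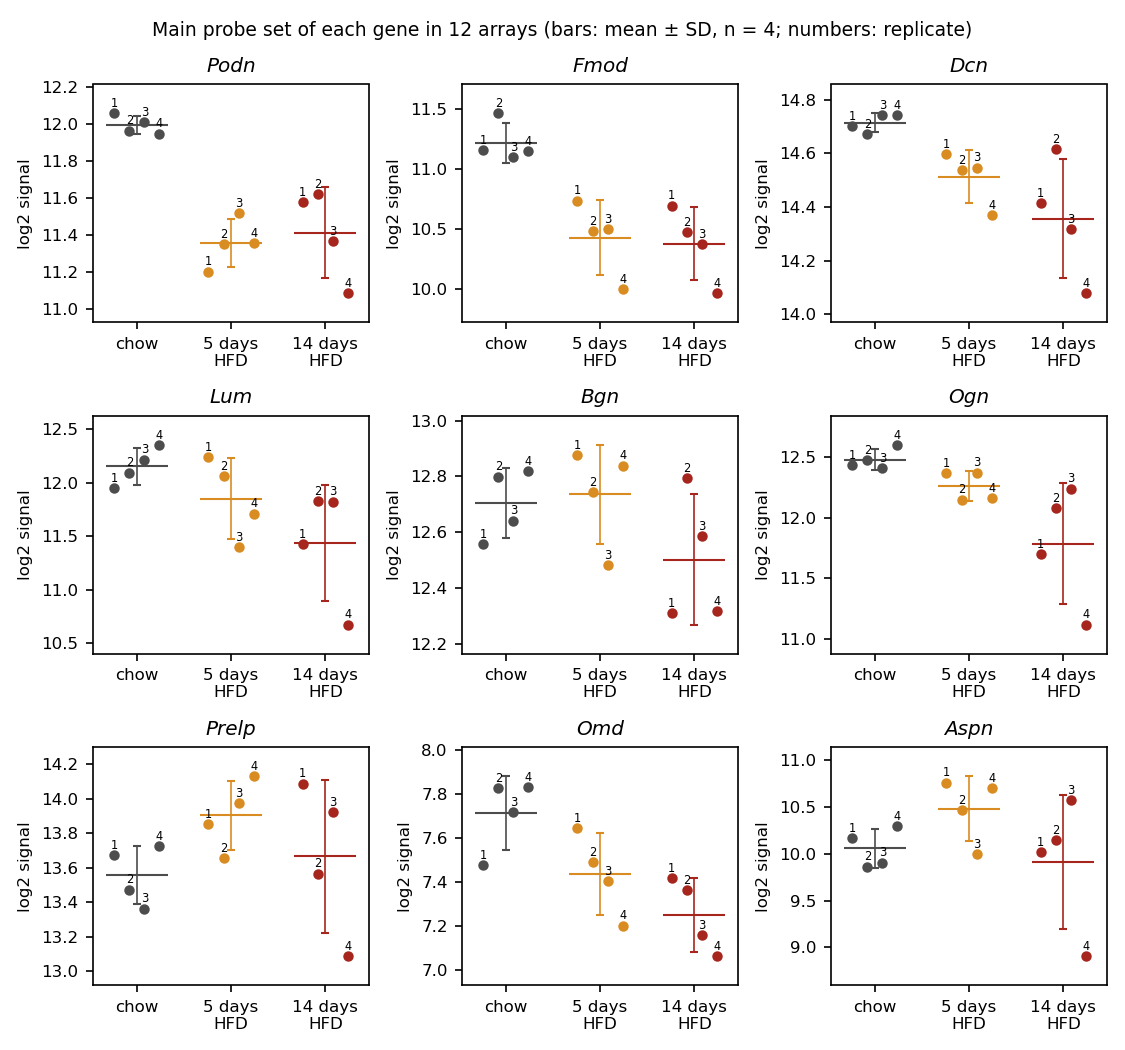
Log2 signal of the main probe set of each gene in chow, 5-day and 14-day arrays (points with their replicate number; lines and bars, mean ± SD, n = 4). Podn, Fmod, Dcn and Ogn lie below all 4 chow arrays in all 8 HFD arrays, while Prelp and Aspn overlap chow in both groups.

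Podn encodes podocan, a collagen-binding member first known from the kidney glomerulus and the vessel wall. Its 1 probe set, 1435180_at, read 12.06, 11.96, 12.01 and 11.95 in chow. It read 11.20, 11.35, 11.52 and 11.36 after 5 days and 11.58, 11.62, 11.37 and 11.09 after 14 days. Every HFD array lay below every chow array, and both HFD groups overlapped each other. The difference from chow was -0.64 ± 0.11 at 5 days (SE from limma), 0.643 times the chow signal, and -0.58 ± 0.11 at 14 days, 0.669 times chow. Between 14 and 5 days it was 0.06 ± 0.11. The 4 chow arrays were tight (SD 0.05), and the SD was 0.13 after 5 days and 0.25 after 14 days. Within the 5-day arrays, array 4, with the low epididymis marker mean, read 11.36 and the other 3 read 11.20 to 11.52.

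Fmod encodes fibromodulin, a keratan sulphate proteoglycan that steers collagen fibril assembly and cross-linking. Its main probe set, 1415939_at, read 11.16, 11.47, 11.10 and 11.15 in chow. After 5 days it read 10.74, 10.48, 10.50 and 10.00, and after 14 days 10.70, 10.47, 10.37 and 9.96. All HFD arrays were again below all chow arrays, with array 4 the lowest in each HFD group. The difference was -0.79 ± 0.18 at 5 days, 0.578 times chow, and -0.84 ± 0.18 at 14 days, 0.558 times chow. Between 14 and 5 days it was -0.05 ± 0.18 with this probe set, and the other probe sets had the opposite sign.

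Fmod is read by 6 probe sets, of which 5 have the suffix of sets whose probes may be shared with other sequences. Their differences ran from -0.85 to -0.58 at 5 days and from -0.84 to -0.49 at 14 days, and in all 6 the HFD arrays lay below the chow arrays at both times. Between 14 and 5 days the other 5 differed by 0.09 to 0.16, where the main one differed by -0.05, and the groups overlapped in all 6. For comparison with the whole array, groups did not overlap in the lower direction in 4.77% of 13311 genes at 5 days and in 2.26% at 14 days. Since Podn and Fmod were chosen on this difference, nothing is read from their place in that background. Without 14-day array 4 the 14-day differences were -0.47 ± 0.08 for Podn and -0.70 ± 0.16 for Fmod.

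The 7 genes other than Podn and Fmod were listed with earlier results of these data known, so their counts are a description. Of these 7, 4 read lower than chow at 5 days and 6 at 14 days, and 7 read lower at 14 than at 5 days. Lower signal was the case in 50.4%, 44.8% and 44.0% of all genes tested, so the count at 5 days was near the background share. The median difference of the 7 was -0.20 at 5 days, -0.36 at 14 days and -0.24 between 14 and 5 days, against -0.0015, 0.02 and 0.01 over all genes tested. With Podn and Fmod, whose direction against chow was fixed by their choice, the medians over 9 were -0.22, -0.46 and -0.23. Without 14-day array 4 the medians over 9 were -0.40 at 14 days and -0.12 between 14 and 5 days. In that fit Aspn turned to 0.19 against chow, and the 7 genes still read lower at 14 than at 5 days. The 3 comparisons share groups of arrays, so these medians are not independent of one another.

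**Figure D2:**
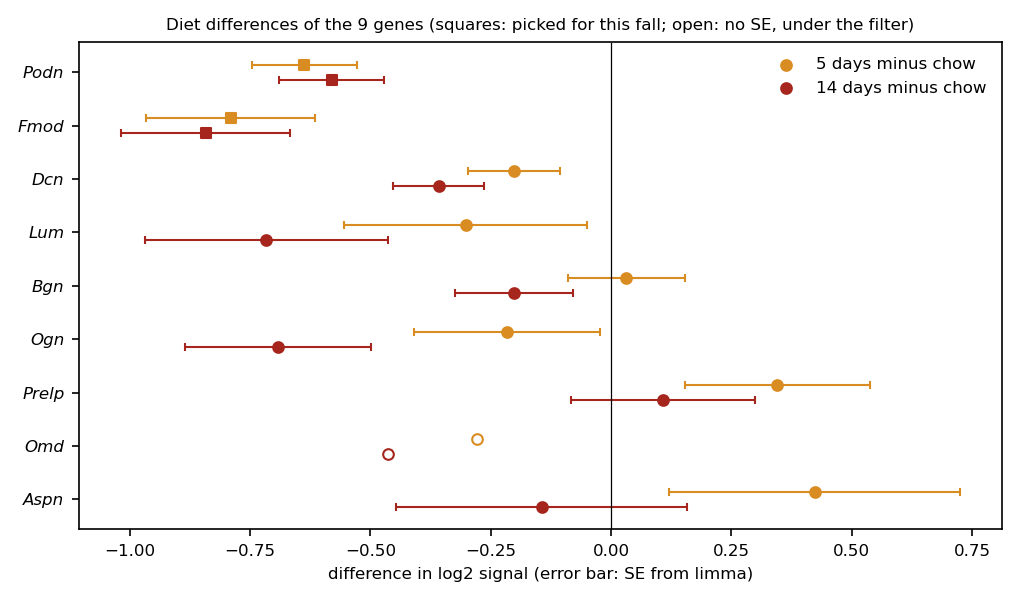
Difference in log2 signal from chow after 5 and 14 days of HFD for each gene (points; bars, SE from limma, n = 4 per group; squares, genes picked for this difference; open points, Omd, which has no SE). Fmod and Podn lie at -0.79 and -0.64 at 5 days, Prelp and Aspn lie above 0 at 5 days, and Lum and Ogn reach -0.72 and -0.69 at 14 days.

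The test was applied to the 6 genes other than Podn and Fmod that passed the intensity filter: Dcn, Lum, Bgn, Ogn, Prelp and Aspn. They too were listed with earlier results of these data known, and the p values take no account of that choice. By limma with Benjamini-Hochberg adjustment over 13311 genes, 0 of these 6 passed an adjusted p of 0.05 in any comparison. In each comparison 0% of all genes passed, and the lowest adjusted p of any gene was 0.248 at 5 days, 0.362 at 14 days and 0.672 for 14 against 5 days. At an unadjusted p under 0.05 the count of the 6 was 0 at 5 days, where 5.67% of all genes were lower and 4.43% higher at that level. It was 3 at 14 days, Dcn, Lum and Ogn, all lower, where 4.3% of genes were lower and 3.67% higher. For 14 against 5 days it was 1, Ogn, lower, where 0.789% of genes were lower and 1.77% higher. Omd averaged under the filter of 7.64 and was not tested. When limma weighted each array by its agreement with its group, the adjusted test called Dcn at 5 days, where 15.1% of all genes were called. At 14 days that fit called Dcn, Lum, Bgn and Ogn as lower and Prelp as higher, where 22.4% of genes were called. For 14 against 5 days it called Dcn, Bgn and Ogn as lower, where 16.6% were. The weights ran from 0.106 for 14-day array 4 to 3.54 for 14-day array 1.

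Dcn encodes decorin, the class I member that coats collagen fibrils and binds transforming growth factor beta. In chow 1449368_at read 14.70, 14.67, 14.74 and 14.74. After 5 days it read 14.60, 14.54, 14.55 and 14.37, and after 14 days 14.42, 14.62, 14.32 and 14.08. None of the HFD arrays reached the lowest chow array. The difference was -0.20 ± 0.10 at 5 days (adjusted p = 0.512 by limma) and -0.36 ± 0.10 at 14 days (adjusted p = 0.472, unadjusted p = 0.00302). The 95% interval at 14 days ran from -0.57 to -0.15 before any adjustment for the number of genes. The weaker probe set 1441506_at differed by -0.28 and -0.24, with overlapping groups.

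Bgn encodes biglycan, the close relative of decorin that also acts on Toll-like receptors when released from the matrix. Its main probe set, 1416405_at, read 12.56 to 12.82 in chow, 12.48 to 12.88 after 5 days and 12.31 to 12.80 after 14 days, so all groups overlapped. The difference was 0.03 ± 0.12 at 5 days, with a 95% interval from -0.24 to 0.30, and -0.20 ± 0.12 at 14 days (adjusted p = 0.716 by limma). At 5 days its sign turned to -0.01 after quantile normalization. All 3 probe sets of Bgn were above chow at 5 days, by 0.03 to 0.06, and below it at 14 days, by -0.21 to -0.13.

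Aspn encodes asporin, a class I protein with a run of aspartate residues that binds collagen and calcium. With 1448421_s_at, chow read 10.16, 9.86, 9.90 and 10.29. After 5 days it read 10.76, 10.46, 10.00 and 10.70, so 3 arrays lay above all chow arrays and 1 within them. After 14 days it read 10.02, 10.15, 10.57 and 8.91. The difference was 0.42 ± 0.30 at 5 days (adjusted p = 0.671 by limma) and -0.14 ± 0.30 at 14 days (adjusted p = 0.92), and the latter turned to 0.19 ± 0.19 without 14-day array 4.

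Lum encodes lumican, a class II keratan sulphate proteoglycan of collagen-rich tissue. Chow arrays read 11.95, 12.10, 12.22 and 12.36 with 1423607_at. The 5-day arrays read 12.24, 12.06, 11.40 and 11.71 and overlapped chow, and the 14-day arrays read 11.43, 11.83, 11.83 and 10.67, all below chow. The difference was -0.30 ± 0.25 at 5 days (adjusted p = 0.731 by limma) and -0.72 ± 0.25 at 14 days (adjusted p = 0.58, unadjusted p = 0.016). Without 14-day array 4 the latter was -0.46 ± 0.19, which moved it by more than 1.5 times.

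Prelp encodes a class II protein that anchors basement membranes to the connective tissue beneath. With 1416321_s_at, chow read 13.67, 13.47, 13.36 and 13.73. After 5 days it read 13.86, 13.66, 13.97 and 14.13, with 3 arrays above all chow arrays, and after 14 days 14.09, 13.57, 13.93 and 13.09. The difference was 0.35 ± 0.19 at 5 days (adjusted p = 0.569 by limma) and 0.11 ± 0.19 at 14 days (adjusted p = 0.906). The 14-day difference was 0.30 ± 0.14 without 14-day array 4 and -0.03 without 14-day array 1. Probe set 1416322_at differed by 0.30 at 5 days and 0.02 at 14 days.

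Ogn encodes osteoglycin, also called mimecan, a class III member. With 1419663_at, chow read 12.43, 12.47, 12.41 and 12.60. The 5-day arrays read 12.36, 12.15, 12.37 and 12.16 and the 14-day arrays 11.70, 12.08, 12.24 and 11.12, and neither group reached the lowest chow array. The difference was -0.22 ± 0.19 at 5 days (adjusted p = 0.754 by limma), -0.69 ± 0.19 at 14 days (adjusted p = 0.488, unadjusted p = 0.00417) and -0.48 ± 0.19 between 14 and 5 days (adjusted p = 0.999, unadjusted p = 0.0312). Probe set 1419662_at gave -0.22, -0.81 and -0.59. Without 14-day array 4 the difference from chow was -0.47 ± 0.12 and that from 5 days -0.25.

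Omd encodes osteomodulin, a class II member best known from bone and tooth. Its probe set, 1418745_at, read 7.48, 7.83, 7.72 and 7.83 in chow, 7.65, 7.49, 7.40 and 7.20 after 5 days and 7.42, 7.36, 7.16 and 7.06 after 14 days. These levels lie near the intensity filter, and the 14-day arrays were all below chow while the 5-day arrays overlapped it. The difference was -0.28 at 5 days and -0.46 at 14 days.

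The 6 tested genes can be set against the background of groups that do not overlap. At 5 days Dcn and Ogn, 2 of the 6, lay below all chow arrays, where 4.77% of all genes did, and 0 lay above them, where 6.49% did. At 14 days Dcn, Lum and Ogn did so, 3 of the 6, against 2.26%, and 0 lay above, against 2.37%. Between 14 and 5 days all 6 overlapped, where 0.278% of genes were lower and 0.646% higher without overlap. Among neighbours on a chromosome at 5 days, Dcn and Lum were both lower (-0.20 and -0.30), as were Omd and Ogn (-0.28 and -0.22). Aspn, beside Omd, was higher (0.42), and Prelp was higher (0.35) where Fmod was lower (-0.79). Differences between genes were not tested.

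Counts of members outside the range of the chow arrays differed between arrays. The share of all genes outside that range was not computed for single arrays, so nothing is read from these counts. They include Podn and Fmod, whose fall was the reason for their choice. In 14-day array 4 all 9 genes lay below the lowest chow array, and it held the lowest of the 12 values for 8 of them. In 5-day array 3 and 14-day array 1 the count below chow was 7, and in 5-day arrays 1 and 2 it was 4. Above the highest chow array were 3 genes in 5-day arrays 1 and 4, and 0 in 14-day arrays 2 and 4. The other HFD arrays had counts between these.

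**Figure D3:**
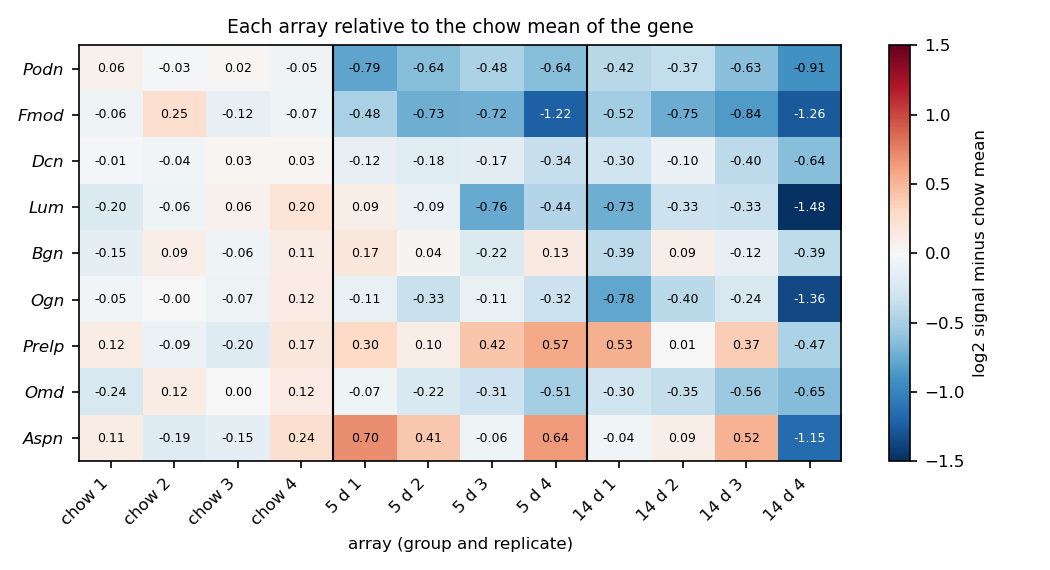
Log2 signal of each gene (rows) in each array (columns) minus the chow mean of that gene, from blue (lower) to red (higher). The rows of Podn, Fmod, Dcn, Ogn and Omd are below 0 in all 8 HFD arrays, and the column of 14-day array 4 is below 0 for all 9 genes.

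Markers of stromal cells were lower in some of the same arrays; the marker genes named here were chosen after their values were seen. The mean of 13 fibroblast and preadipocyte markers ran from 10.56 to 10.70 in chow, 10.43 to 10.76 after 5 days and 9.92 to 10.66 after 14 days, with 14-day array 4 the lowest. Of the 13, 9 were lower than chow at 5 days and 11 at 14 days, where 50.4% and 44.8% of all genes tested were. At an unadjusted limma p under 0.05, 2 and 4 of them were lower, where 5.67% and 4.3% of all genes were. After adjustment 0 passed. Pdgfra, the receptor that marks adipocyte progenitors, differed by -0.48 ± 0.12 and -0.56 ± 0.12, and Clec3b (tetranectin) by -0.54 ± 0.15 and -0.58 ± 0.15. Col15a1, a basement membrane collagen, differed by 0.76 ± 0.31 at 5 days. With the mean of this list as a covariate, Podn stood at -0.62 ± 0.10 and -0.50 ± 0.12 and Fmod at -0.76 ± 0.15 and -0.66 ± 0.17. In the same fit the 14-day difference of Lum was -0.33 ± 0.17 and that of Ogn -0.42 ± 0.14, both moved by more than 1.5 times, and that of Aspn turned to 0.38 ± 0.13.

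Mesothelial markers, from the cell layer that covers visceral fat, were lower in 10 of 12 at 5 days and 9 of 12 at 14 days, 6 at each time at an unadjusted limma p under 0.05 and 0 after adjustment. Of all genes tested, 50.4% and 44.8% were lower, 5.67% and 4.3% at that level. Their mean ran from 10.45 to 10.75 in chow, 9.79 to 10.44 after 5 days and 9.94 to 10.46 after 14 days. All 12 passed the intensity filter, and Wt1, a transcription factor of mesothelium, differed by -0.68 ± 0.19 and -0.61 ± 0.19. The keratins Krt18 and Krt8 were higher than chow at 5 days, by 0.76 ± 0.85 and 0.15 ± 0.62. At 14 days they differed by 0.21 ± 0.85 and 0.02 ± 0.62, and Krt19 by 0.0005 ± 0.32. The mean used as a covariate includes these keratins. With the mesothelial mean as a covariate, Fmod stood at -0.29 ± 0.10 at 5 days and -0.35 ± 0.10 at 14 days. Omd stood at 0.03 and -0.16 in that fit and Dcn at -0.05 ± 0.12 and -0.20 ± 0.12. Podn stood at -0.56 ± 0.15 and -0.51 ± 0.15. The covariate itself differed between the diets, so such a fit divides a shared difference between both, and the part of mesothelial or stromal cell number in any gene's difference was not tested.

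**Figure D4:**
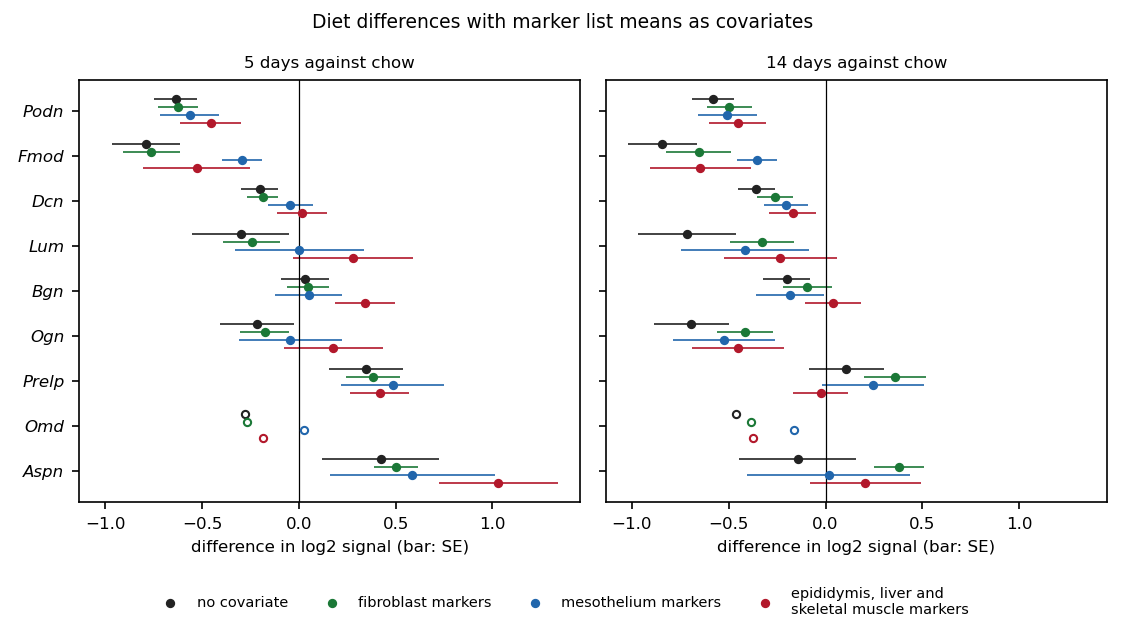
Difference in log2 signal from chow for each gene with no covariate and with 3 sets of marker means as covariates, at 5 days (left) and 14 days (right); bars are SE from limma and open points have none. Podn lies between -0.64 and -0.45 in all 8 fits shown, while Fmod moves from -0.79 to -0.29 at 5 days with mesothelial markers.

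With the epididymis, liver and skeletal muscle means as covariates, Podn stood at -0.46 ± 0.16 and -0.45 ± 0.15 and Fmod at -0.53 ± 0.28 and -0.65 ± 0.26. In that fit Dcn, Lum and Ogn turned to 0.02, 0.28 and 0.18 at 5 days, and the median of the 9 genes turned to 0.18. At 14 days the median in that fit was -0.23. The epididymis mean was 7.01 to 7.68 in chow, 9.26 to 10.05 in 5-day arrays 1 to 3 and 6.97 in 5-day array 4. That fit too divides a shared difference between diet and covariates, so nothing is read from the signs that turned. Macrophage markers averaged 11.23 to 11.49 in chow, 11.04 to 11.38 after 5 days, 10.84 to 11.28 in 14-day arrays 1 to 3 and 9.96 in 14-day array 4. All 10 were lower than chow at 14 days, as were 44.8% of all genes tested. Of the 10, 6 were lower at an unadjusted limma p under 0.05, where 4.3% of all genes were. Endothelial markers averaged 10.01 to 10.37, 10.00 to 10.87 and 9.69 to 10.55. The part of these cells in the results was not tested.

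**Figure D5:**
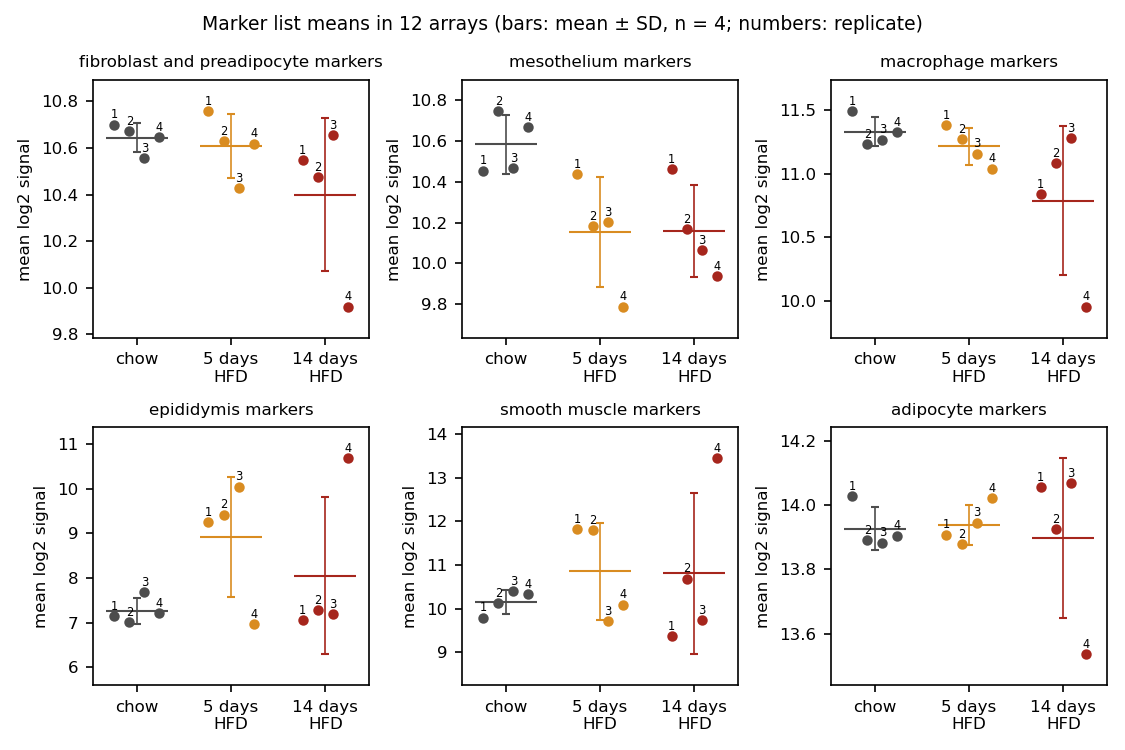
Mean log2 signal of the marker lists of 6 tissues or cell types in each array (points with replicate number; lines and bars, mean ± SD, n = 4). Mesothelial means are 10.45 to 10.75 in chow and 9.79 to 10.46 in HFD arrays, and epididymis means exceed 9 in 5-day arrays 1 to 3 and 14-day array 4.

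Collagens are the fibrils that these proteins bind, and 12 of 13 listed collagen genes passed the intensity filter. As background for this list and those below, 50.4% of all genes tested were lower at 5 days and 44.8% at 14 days. For 14 against 5 days the share was 44.0%. At 5 days 9 were higher than chow and 3 lower, with a median difference of 0.20; 2 were higher at an unadjusted limma p under 0.05, where 4.43% of genes were. These were Col5a3 (0.76 ± 0.28) and Col6a2 (0.54 ± 0.22). At 14 days 6 were lower and 6 higher, and 3 were lower at that level, against 4.3% of genes: Col1a2 (-0.53 ± 0.13), Col1a1 (-0.53 ± 0.20) and Col14a1 (-0.51 ± 0.20). At 14 against 5 days all 12 were lower, with a median of -0.28 and 2 at that level, where 0.789% of genes were, Col1a2 (-0.37 ± 0.13) and Col3a1 (-0.31 ± 0.14). After adjustment 0 of the 12 passed in any comparison. The mean of the 13 listed collagens was 10.74 in 14-day array 4 and 11.27 to 11.55 in 14-day arrays 1 to 3. In the 5-day arrays it was 11.25 to 11.61, so the lower 14-day values lean on that 1 array.

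Enzymes that build the sugar chains were split between lower and higher. Of 20 tested genes of chondroitin and dermatan sulphate synthesis, 8 were lower and 12 higher at 5 days (median 0.02) and 10 and 10 at 14 days (median 0.00013). Chpf2, a chondroitin polymerising factor, differed by 0.29 ± 0.08 and 0.21 ± 0.08, and the xylose kinase Fam20b by 0.35 ± 0.16 and 0.39 ± 0.16. At an unadjusted limma p under 0.05, 1 of the 20 was higher at 5 days and 2 at 14 days, against 4.43% and 3.67% of all genes, and 0 were lower. Of 9 keratan sulphate synthesis genes, 7 were lower at 5 days and 5 at 14 days (medians -0.07 and -0.06), and the sulphotransferase Chst2, higher by 0.29 ± 0.10 and 0.22 ± 0.10, was the 1 gene at that level at each time, against the same shares of all genes. After adjustment 0 passed.

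Among proteins that process the family and its collagens, 5 of 8 tested were lower at 5 days and 6 of 8 at 14 days (medians -0.18 and -0.30). The membrane protease Mmp14 differed by -0.30 ± 0.12 and -0.45 ± 0.12, Mmp2 by -0.21 ± 0.13 and -0.38 ± 0.13, and Pcolce, the procollagen C-proteinase enhancer, by -0.57 ± 0.20 at 14 days. Bmp1, the protease that trims procollagen and some of these proteoglycans, differed by -0.29 ± 0.11 between 14 and 5 days. Lower at an unadjusted limma p under 0.05 were 1 gene at 5 days and 3 at 14 days, where 5.67% and 4.3% of all genes were, and 0 passed after adjustment.

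Of 18 tested receptor and growth factor genes, 13 were lower at each time (medians -0.14 and -0.14). Tlr2, a receptor for biglycan, differed by -0.37 ± 0.12 and -0.46 ± 0.12, and Tgfbr2 by -0.37 ± 0.10 at 14 days. Tgfb1, the growth factor that decorin binds, differed by 0.24 ± 0.07 at 5 days and by -0.21 ± 0.07 between 14 and 5 days. P2rx7, an ATP-gated channel, differed by -0.23 ± 0.10 and -0.28 ± 0.10. Lower at an unadjusted limma p under 0.05 were 3 genes at each time, with 1 higher at 5 days and 0 at 14 days. Of all genes 5.67% and 4.3% were lower at that level and 4.43% and 3.67% higher, and of the 18 genes 0 passed after adjustment.

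Other proteoglycans, 17 tested, were lower in 11 at 5 days and 10 at 14 days (medians -0.11 and -0.08). Gpc3, a membrane heparan sulphate proteoglycan, differed by -0.63 ± 0.15 and -0.68 ± 0.15 (adjusted p = 0.322 and 0.42 by limma), and Spock2 (testican) by -0.68 ± 0.13 and -0.42 ± 0.13 (adjusted p = 0.277 and 0.542). These were the 2 genes lower at an unadjusted p under 0.05 at each time, where 5.67% and 4.3% of all genes were. Ncan differed by 0.36 ± 0.16 at 5 days, the 1 gene higher at that level, where 4.43% of all genes were.

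The genes with the profile most like Fmod over the 12 arrays were Cdh11 (Pearson r 0.989, Spearman rho 0.979), Fbln1 (r 0.982, rho 0.965), Aebp1 (r 0.98, rho 0.937), Nbl1 (r 0.953, rho 0.965) and Gpc3 (r 0.947, rho 0.902). They encode a cadherin, fibulin-1, a collagen-binding carboxypeptidase-like protein, a bone morphogenetic protein antagonist and glypican-3. After the group means were removed, r stayed at 0.975 for Cdh11 and 0.812 for Gpc3, the lowest of the 5. Without the 2 arrays farthest from the Fmod median, chow array 2 and 14-day array 4, r ran from 0.901 to 0.987.

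For Podn the closest were Mettl7a1 (r 0.938, rho 0.895), C2 (r 0.93, rho 0.846), C1ra (r 0.924, rho 0.832), Cep89 (r 0.923, rho 0.93) and Fancl (r 0.917, rho 0.937). C2 and C1ra encode complement components. With group means removed r ran from 0.649 to 0.87, and without chow arrays 1 and 3, the farthest from the Podn median, from 0.878 to 0.949. For Dcn they were Aldh1a3 (r 0.966, rho 0.963), Timp2 (r 0.961, rho 0.918), Mmp23 (r 0.952, rho 0.935), Ddr2 (r 0.94, rho 0.933) and H2-M3 (r 0.939, rho 0.935). Ddr2 encodes a collagen receptor and Timp2 a metalloprotease inhibitor. With group means removed r ran from 0.899 to 0.918, and without 14-day arrays 3 and 4 from 0.874 to 0.934. These genes were picked for the highest r among all genes past the filter, the arrays share diet groups, and the values are a description with no test.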

How the data were processed

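The authors deposited log2 signals of 45098 probe sets in 12 arrays, from 4.18 to 15.50, with array medians of 8.09 to 8.14; the log2 scale was judged from these values. Probe summary, normalization and genome build are not given in the sources used here. The members and gene lists were chosen with earlier results of these data known. Probe sets carrying 1 symbol in the platform annotation (34945) named 18193 genes; 932 with several symbols, 9160 with none and 61 controls were not used. Genes whose main probe set averaged under the 40th percentile (7.64) were left out, which kept 13311. A limma 3.58.1 model (R 4.3.3) took all 3 groups at once (eBayes with trend, two-sided, Benjamini-Hochberg). The same fit was tested on simulated data with 200 shifted genes. Named genes were all members, up to 3 genes of smallest p per pathway list and comparison, and the 5 genes most like Podn, Fmod and Dcn; from these the text names a part. Alternatives covered normalization, filter, probe set choice, variance moderation, array weights, samples fitted, replicate block, marker covariates and left-out arrays. Precision is limited by 4 arrays per group.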

Additional observations from a re-analysis of the deposited data

Results flagged for a closer look

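In chow, Fmod read 11.47 in array 2 and 11.10 to 11.16 in the other 3, a gap large enough against the group's range to mark the array as standing apart. The same gap was found for the adipocyte marker mean in chow array 1 (14.03, others 13.88 to 13.91), the skeletal muscle marker mean in chow array 3 (12.08, others 7.97 to 8.14) and the epididymis marker mean in 14-day array 4 (10.67, others 7.06 to 7.28). In all 57 groups of 4 values were examined, 27 of them of the 9 genes, and chance marks about 1 group in 20.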

How the results depend on the processing

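Over 26 alternative fits, 12 of them leaving out 1 array, Podn against chow ran from -0.69 to -0.46 at 5 days and from -0.65 to -0.45 at 14 days, and Fmod from -0.89 to -0.29 and from -0.95 to -0.35. For the 6 tested genes 439 of 468 values kept direction and their side of the threshold, 9 passed it and 20 changed sign. All 9 that passed came from limma with array weights (weights from 0.106 for 14-day array 4 to 3.54 for 14-day array 1), where 15.1%, 22.4% and 16.6% of all genes passed. There the count of members other than Podn and Fmod went from 0 to 1 at 5 days (Dcn), 5 at 14 days (Dcn, Lum, Bgn and Ogn lower, Prelp higher) and 3 for 14 against 5 days (Dcn, Bgn and Ogn). It was 0 in the other 25 fits, among them some that called other genes: 6.62% of all genes at 5 days and 5.43% for 14 against 5 days without both HFD arrays numbered 4, 1.60% at 5 days with only the compared groups fitted, and 0.924% at 5 days without 14-day array 4. The cause was not tested. Signs turned mostly near 0. At 5 days Bgn was -0.012 with quantile normalization, -0.0029 without 5-day array 4 and 14-day array 4, and -0.017 to 0.12 as single arrays were left out. Aspn at 14 days was 0.10 with array weights, 0.21 with the 3 tissue covariates, 0.38 with the fibroblast covariate, 0.016 with the mesothelium covariate, 0.19 without both arrays numbered 4, and -0.36 to 0.19 as single arrays were left out. Prelp at 14 days was -0.024 with the 3 tissue covariates and -0.033 to 0.30 as single arrays were left out; against 5 days it was 0.13 with array weights and 0.031 without both arrays numbered 4 of the HFD groups. The 3 tissue covariates gave 0.018 for Dcn, 0.28 for Lum and 0.18 for Ogn at 5 days, a median of 0.18 over the 9 genes, and 0.039 for Bgn at 14 days. The epididymis mean itself differed between chow and most 5-day arrays, so that fit divides a shared difference between diet and covariates. The mesothelium covariate gave 0.0023 for Lum at 5 days. The causes were not tested.

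Replicate numbers are shared between the groups, but same-numbered arrays did not deviate together: correlations of their deviations from the group means ran from -0.73 to 0.41, and 2 of 12 exceeded 0.1. With the replicate number as a block the medians over the 9 genes stayed at -0.22, -0.46 and -0.23, and 0 tested members passed. The number of arrays and signals near the intensity filter, as for Omd, limit what can be seen.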

Other observations

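Of 9 further genes of the family, 7 were named on the array and 2 passed the intensity filter; their mean log2 signals (± SD, n = 4) are given for chow, 5-day and 14-day arrays in turn. Optc (opticin), the neighbour of Prelp on chromosome 1, read 7.98 ± 0.11, 8.35 ± 0.15 and 8.37 ± 0.62, and Chadl read 8.73 ± 0.09, 8.86 ± 0.07 and 8.91 ± 0.15. Epyc (epiphycan) read 7.79 ± 0.40, 7.16 ± 0.23 and 7.26 ± 0.34, and Chad (chondroadherin) 7.71 ± 0.45, 7.02 ± 0.09 and 7.23 ± 0.48. Ecm2, the neighbour of Aspn on chromosome 13, read 6.94 ± 0.11, 6.83 ± 0.21 and 6.48 ± 0.34, and Kera (keratocan), beside Lum, 5.95 ± 0.12, 5.86 ± 0.18 and 5.76 ± 0.13. Nyx (nyctalopin) read 6.63 ± 0.14, 6.71 ± 0.13 and 6.62 ± 0.06. All but Optc and Chadl lay under the filter and were not tested, and by limma neither of those passed the adjusted p in any comparison (lowest unadjusted p 0.0416, Chadl at 14 days, adjusted p 0.612).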
